A study of Drosophila melanogaster with 3 samples.

Results

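The weak coding peaks described here are 743 regions of ChIP signal for the ind-eGFP protein whose summits, the positions of highest signal, fell inside protein-coding sequence and whose signal was too low for the authors' optimal list. They were selected from 24244 pooled peaks by 3 criteria. A peak had to be missing from the 5809 optimal peaks, which left 18435 weak peaks. Its summit had to lie in annotated coding sequence outside every 5' UTR. That summit also had to lie more than 500 bp from any annotated transcript start. Pooled signal and rank therefore chose the members and are given as a description only. The study was 1 group of 3 biological replicates of chromatin immunoprecipitation followed by sequencing (ChIP-seq), without a comparison group. Whole Drosophila melanogaster embryos of both sexes, aged 0 to 16 hours, carried an ind-eGFP transgene, and chromatin was pulled down with an antibody against GFP. All 3 replicates shared this genotype and 1 control, whose own data were not analysed here. A whole embryo mixes all tissues and stages, so a site used in few cells and a site bound weakly in many cannot be told apart in these lists.

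The gene ind (intermediate neuroblasts defective) encodes a homeodomain protein that specifies the middle of 3 neuroblast columns on each side of the early nerve cord. Homeodomain proteins bind short A+T-rich sequences, of which TAATTA is the textbook core. Regulatory sites of flies are usually found in introns, between genes and at promoters. Coding sequence is constrained by its codons and is richer in G and C, so it offers such cores less often. Weak binding and background of the assay cannot be told apart in these lists.

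The sequences below are examples of a pair of motifs counted later, CAGCAG, present near 267 of the 743 summits, and the homeodomain core TAATTA, present near 19. Most summits had neither, and the examples were taken from the members named here. They come from RefSeq's dm6 sequence, on the coding strand of the gene, 5′ to 3′, with the motif in capitals. The first 5 lie in peaks found in all 3 replicates, and the last shows a longer run from a peak found in 1 replicate.
sgg (chrX:2659584-2659613, plus strand): tccagtgcatcgCAGCAGcaactgcagttg
nkd (chr3L:19006821-19006850, minus strand): catctgcagctgCAGCAGccgccggtgggt
ScsbetaA (chr3R:8939684-8939713, plus strand): cccatcgccgtcCAGCAGctgaggaacctc
puc (chr3R:8111138-8111167, plus strand): cgccgacgatccCAGCAGcgtgggcgccaa
bun (chr2L:12457850-12457879, minus strand): cgccgagaacggCAGCAGtgcagtcgagtc
mld (chr3R:24616334-24616363, plus strand): CAGCAGCAGCAGCAGCAGaagcagcaacag
In the annotated reading frame the capitals of sgg, nkd and ScsbetaA are glutamine codons (CAG). In puc and bun the same letters are shifted to serine codons (AGC), and in mld to alanine codons (GCA). The 2 TAATTA stretches among peaks found in all 3 replicates both lie outside annotated coding sequence, beside the exon that holds the summit.
ScsbetaA (chr3R:8939603-8939632, plus strand): tcttgttatcttTAATTAgcatctaatttt
CG32264 (chr3L:3769432-3769461, minus strand): taccatgtatgcTAATTActaatttgcccc
The ScsbetaA stretch is centred 68 bp from its summit and the CG32264 stretch 55 bp.

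Coding summits were scarce among the weak peaks and scarcer still among the strong ones. Coding sequence that met the criteria covered 18.4 Mb, or 13.4% of the genome, and held 4.03% of the weak peaks, a density of 40.3 per Mb. Introns covered 39.9% of the genome and held 45.6% of the weak peaks, and promoters covered 13.3% and held 23.2%. Of the 5809 optimal peaks, 11 (0.189%) met the same coding criteria. When the weak peaks were divided into deciles by signal, 0.163% of the strongest decile had coding summits. That share was 3.31% in decile 5, 7.54% in decile 9 and 7.16% in the weakest. All 10 deciles stayed below the 13.4% share of the genome.

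Each replicate's own list showed a similar rise towards weak signal. A replicate's own weak coding peaks are those in its list that met the coding criteria and had no optimal summit within 200 bp. There were 1420, 1815 and 1066 of them in replicates 1, 2 and 3, and their mean density was 77.8 ± 20.3 per Mb (SD, n = 3). In the strongest decile of a replicate's weak peaks the coding share was 0.804%, 1.53% and 0.153% in replicates 1, 2 and 3. In the weakest decile it was 10.8%, 10.9% and 8.33%. Replicate 2 reached 8.77% by decile 4, where replicates 1 and 3 stood at 3.72% and 4.80%. The pooled list was made from the alignments of the same 3 replicates, so these are repeats and not independent lists.

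**Figure D1:**
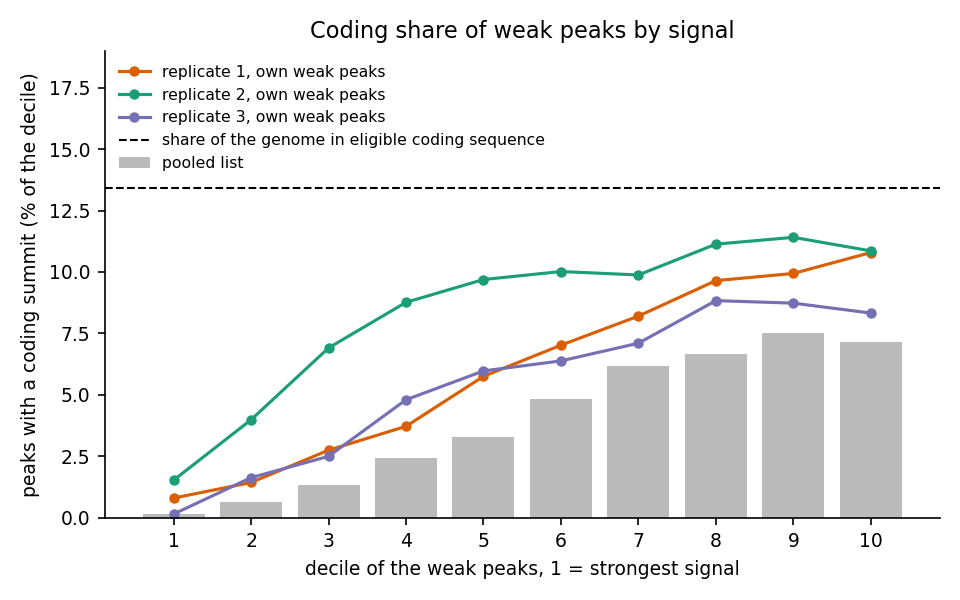
Share of weak peaks with a coding summit (y axis, percent) in each decile of the weak peaks ordered by signal (x axis, 1 is the strongest). Bars are the pooled list and rise from 0.163% to 7.54% in decile 9; coloured lines are the 3 replicates' own weak peaks, and the dashed line marks the 13.4% of the genome that is eligible coding sequence.

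The signals of the members were low by construction. The authors' pooled signal ran from 32.2 to 114.7 with a median of 38.3, which is 0.691 times the median of the pooled list (relative signal 0.581 to 2.07). Weak intron peaks had a median relative signal of 0.830, and weak promoter peaks 0.919. Only 10 members (1.35%) had a −log10 q-value of at least 2 in the pooled list, against 16.4% of weak intron peaks and 21.9% of weak promoter peaks. All members were 400 bp wide. The optimal list ended at a relative signal of 2.14. Just above that end stood the optimal coding peak in Usp1 (2.16), a ubiquitin-specific protease gene. Just below it stood the members in Ubr1 (2.07), CG1986 (1.77) and CG4080 (1.77).

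The 11 optimal coding peaks ranged from close to this end to far above it. The strongest lay in otp, a homeobox gene of the brain and hindgut, at a relative signal of 22.3. In replicates 1, 2 and 3 it stood at 21.2, 20.7 and 19.7 times the list's median. The next lay in Pde1c, a cyclic nucleotide phosphodiesterase gene, at 10.9, and in klar, a gene for nuclear migration, at 7.79. Those 3 are separated from the members by a wide gap, while the peaks in CG10962, l(1)G0196, l(3)mbn, scrib, Tim17b1 and Usp1 lay between 2.16 and 2.65.

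Recurrence in the replicates came next. A member counted as found in a replicate when that replicate's full list had a summit within 200 bp. In all 3 replicates 47 members (6.33%) were found, against a background of 26.5% of all weak pooled peaks. A further 251 (33.8%) were found in 2 replicates, 391 (52.6%) in 1 and 54 (7.27%) in 0. Replicate 1 held 31.4% of the members against 56.5% of all weak peaks, replicate 2 held 58.3% against 63%, and replicate 3 held 49.5% against 67.2%. The mean was 46.4% ± 13.7 (SD, n = 3). Replicate 1 thus stood furthest below its background. Its list held exactly 30000 peaks, against 27570 and 25725 in replicates 2 and 3. Whether its length was limited, which would decide how weak a peak it could hold, is unknown.

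Most of the distance from the background went with rank. The members crowd at the weak end of the pooled list, where few peaks of any kind recurred. With other weak peaks weighted to the ranks of the members, in bins of 100 peaks, 8.98% of intron, 8.40% of intergenic and 8.63% of promoter peaks were found in all 3 replicates, against 6.33% of the members. By decile of signal, members stood below intron peaks in every decile except decile 6. In deciles 1, 2 and 3 the share of members was 33.3%, 66.7% and 36.0%, against 90.2%, 73.5% and 51.6% of intron peaks. Decile 1 held only 3 members. The share was 13.1% against 16.4% in decile 5 and 0.877% against 3.88% in decile 7. Promoter peaks stood below members in deciles 2, 4 and 5, and intergenic peaks in deciles 4 and 6. In decile 4, 13 of 45 members (28.9%) were found in all 3, against 252 of 840 intron peaks, and in decile 6, 7 of 89 (7.87%) against 6.45%. In deciles 8, 9 and 10 none of the 123, 139 and 132 members were, against 2.21%, 1.56% and 1.41% of intron peaks. At matched ranks replicate 1 held 42.1% of intron, 33.0% of intergenic and 55.6% of promoter peaks, against 31.4% of the members. Replicate 2 held 52.9%, 58.8% and 41.3%, against 58.3%, and replicate 3 held 53.0%, 55.1% and 52.0%, against 49.5%. Members were thus lowest of the 4 kinds in replicates 1 and 3 and close to the highest in replicate 2.

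Of the 20 strongest members found in all 3 replicates, the first lay in Ubr1, which encodes an E3 ubiquitin ligase of the N-degron pathway (chrX:16967416-16967815). Its relative signal was 1.56, 2.01 and 1.97 in replicates 1, 2 and 3 (1.85 ± 0.252, SD, n = 3), and its nearest optimal summit was 862 bp away. The member in PNUTS, a nuclear targeting subunit of protein phosphatase 1, had values of 1.85, 1.78 and 1.57 (1.73 ± 0.147, SD, n = 3), the second highest mean. In the histidyl-tRNA synthetase gene HisRS the values were 2.45, 0.969 and 1.06, so replicate 1 alone put it high. The member in Adsl, which encodes adenylosuccinate lyase of purine synthesis, was low in replicate 1 at 0.667 and stood at 1.53 and 1.55 in the others. In hep, the kinase that activates the Jun kinase, replicate 2 stood apart with 1.88 against 1.06 and 0.957. Only the peaks in Ubr1 and PNUTS lay above 1.5 in every replicate.

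The rest of these 20 fell in genes of many kinds. Signalling genes among them were raskol, a Ras GTPase-activating protein (1.31 ± 0.384, SD, n = 3), and puc, the Jun kinase phosphatase (1.08 ± 0.336). Also among them were sgg, the fly glycogen synthase kinase of the Wingless pathway (1.02 ± 0.190), and nkd, a Wingless inhibitor (0.979 ± 0.183). Metabolic and transport genes were ScsbetaA, a succinyl-CoA synthetase subunit (1.06 ± 0.259), SNF4Agamma, a subunit of the AMP-activated kinase (0.992 ± 0.231), and Ndae1, a sodium-driven anion exchanger (0.996 ± 0.144). Edc3 (1.10 ± 0.149) acts in mRNA decapping, and Dlic (0.981 ± 0.284) is a dynein light intermediate chain. The peaks in CG2694, CG1632, CG9119, CG6678, CG32264 and CG13937 had replicate means between 0.973 and 1.37. In most of these genes the spread over replicates was as wide as the distance between neighbours in the order.

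**Figure D2:**
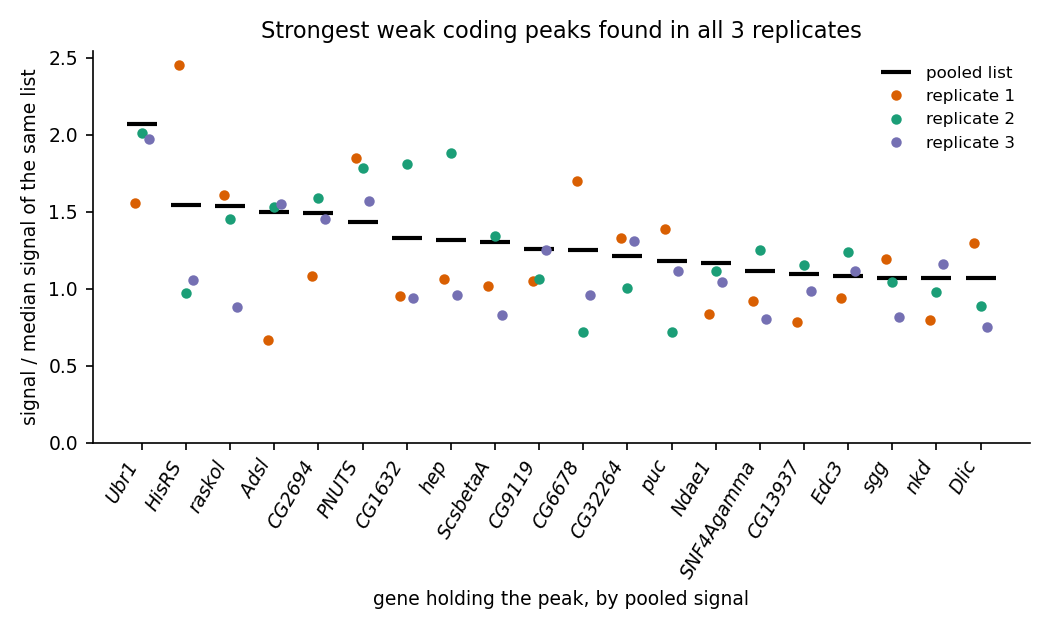
Relative signal (y axis, signal over the list's median) for the 20 strongest members found in all 3 replicates, by gene (x axis). Black bars are the pooled list and coloured points the 3 replicates; the points of HisRS run from 0.969 to 2.45, while those of PNUTS lie between 1.57 and 1.85.

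The bases around the summits were poorer in A and T than coding sequence at large. Within 100 bp of a member's summit 45.5% of bases were A or T. Over 921531 evenly spaced positions of eligible coding sequence the mean was 48.2%. The replicates' own weak coding peaks averaged 46.9%, 46.3% and 46.3% (46.5% ± 0.371, SD, n = 3), below the coding value in 3 of 3. Members found in all 3 replicates had 44.1%, optimal coding peaks 44.7% and weak intron peaks 60.8%. Positions with less than 44.8% A+T, the poorest tercile of coding sequence, held 47.4% of the members, and those above 50.7% held 24.4%.

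**Figure D3:**
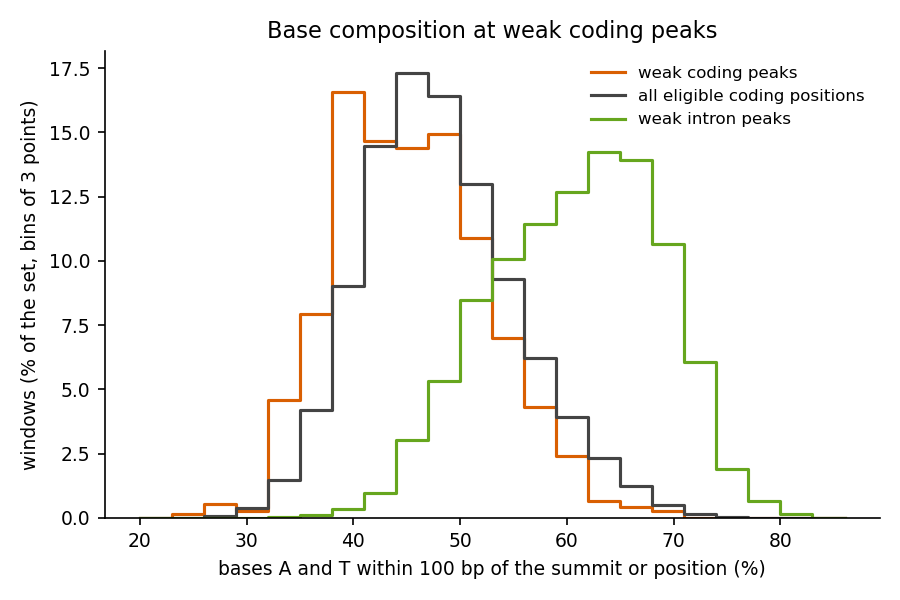
Distribution of the percent of A and T bases within 100 bp of the summit or position (x axis), as percent of windows in bins of 3 points (y axis). Weak coding peaks (mean 45.5%) lie to the left of all eligible coding positions (48.2%), and weak intron peaks (60.8%) lie to the right of both.

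The homeodomain core was rare at these summits. TAATTA, sought on both strands within 100 bp, was present at 19 members (2.56%), against 3.02% of coding positions and 14.6% of weak intron peaks. It stood at 2.25%, 2.26% and 3.56% of the own weak coding peaks of replicates 1, 2 and 3 (2.69% ± 0.755, SD, n = 3), so members and coding sequence differed by less than this spread. In 18 of the 19 members the TAATTA nearest the summit lay outside coding sequence, and in 1, in RhoGAP54D, inside it. Over coding positions with the motif, 32.9% had it inside coding sequence. The replicates' own peaks had it there in 8 of 32, 14 of 41 and 9 of 38 cases, which is 25.0%, 34.1% and 23.7%. From the A+T-poor to the A+T-rich tercile of coding sequence, TAATTA was at 0.284%, 2.86% and 6.63% of members. The shares of positions were 0.546%, 1.64% and 6.72%, so members stood higher in the middle tercile only. TAATTG, another homeodomain core, was at 5.38% of members and 6.57% of coding positions. None of the 11 optimal coding peaks (0 of 11) held either core.

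CAGCAG was the most frequent of the 12 6-mers examined. It lay within 100 bp of 267 members (35.9%), against 29.7% of coding positions and 12.6% of weak intron peaks. The replicates' own peaks had it in 34.0%, 32.3% and 35.0% (33.8% ± 1.37, SD, n = 3), above the coding value in 3 of 3. Among members found in all 3 replicates 23 of 47 (48.9%) had it. Read in the coding strand's glutamine frame, as in the sgg and nkd sequences above, it was at 16.2% of members and 12.2% of coding positions (own peaks 13.5% ± 0.719, SD, n = 3). The serine frame gave 6.59% and 5.29%, the alanine frame 3.36% and 2.83%, and the opposite strand of coding sequence 15.5% and 12.9%. All 4 readings were thus more frequent at members. The share of CAGCAG also went with base composition. In the A+T-poor tercile of coding sequence 47.7% of members and 42.6% of positions had it. In the middle tercile the order was turned, with 28.6% and 29.9%, and in the A+T-rich tercile it was 21.5% and 17.3%.

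GCCGCC, included as a G+C-rich control of composition, was at 27.5% of members against 20.6% of coding positions. The replicates' own peaks had it at 26.4%, 23.0% and 28.8%, above the coding value in 3 of 3. In the A+T-poor, middle and A+T-rich terciles of coding sequence it was at 40.6%, 19.5% and 11.0% of members. The shares of positions were 37.8%, 17.6% and 7.37%, so the difference was smaller within each tercile. For the other 6-mers the replicates differed among themselves or stood close to coding sequence. CAGGTA, the core of the early activator Zelda, was at 8.48% of members against 6.54%, with 6.20%, 8.04% and 6.66% in replicates 1, 2 and 3. AGATAA, the GATA factor core, was at 4.17% against 6.46%. Its share was 7.46%, 5.01% and 5.35% in the replicates, and 8.51% (4 of 47) among members found in all 3. AAAAAA, also a control of composition, was at 7.27% against 8.45%, with 8.80%, 6.72% and 7.13% in the replicates. GAGAGA was at 4.04% against 4.86%, while the own peaks averaged 5.24% ± 0.496 (SD, n = 3), on the other side of the coding value. CACGTG was at 2.96% against 2.97%, CAGGTG at 17.1% against 15.5% (own peaks 17.2% ± 1.95, SD, n = 3), ATCGAT at 8.34% against 7.32% (7.66% ± 0.472) and TAAGTG at 5.65% against 5.47% (5.67% ± 0.244). When the 2062 6-mers present at 2% or more of coding positions were ranked by ratio, the first was AGGGGG, at 4.58% against 2.41%. Its share was 3.10%, 3.80% and 4.13% in the 3 replicates' own peaks. CCACCC was at 15.7% against 9.45%. Near the other end TAATAA was at 2.83% against 6.82%, and CGTAAC was last at 1.08% against 3.17%. No test was made of these ratios, which were not matched for base composition, and the extremes of a ranking are always overstated.

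Members were denser in short coding exons than in long ones. The coding part of the exon that held a summit had a median length of 512 bp, against 824 bp over coding positions. Density was 63.2 members per Mb in exons from 200 to under 500 bp and 55.3 per Mb in shorter ones. It was 48.4 per Mb from there to under 1000 bp, 25.2 per Mb from 1000 to under 2000 bp and 12.2 per Mb, from 39 members, in exons of 2000 bp or more. The replicates' own peaks had 102.9, 131.7 and 85.5 per Mb in the class from 200 to under 500 bp and 32.3, 65.0 and 21.7 per Mb in the longest class. That class was the lowest in 3 of 3 replicates, with means of 106.7 ± 23.3 and 39.6 ± 22.6 per Mb (SD, n = 3).

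**Figure D4:**
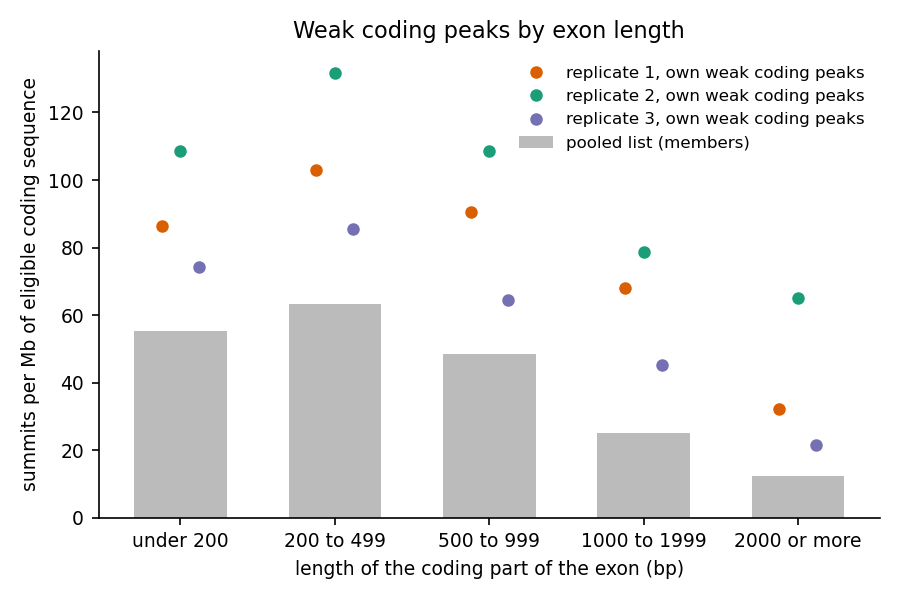
Summits per Mb of eligible coding sequence (y axis) by length of the coding part of the exon (x axis, bp). Bars are the members from the pooled list and points the 3 replicates' own weak coding peaks; the bars fall from 63.2 in exons from 200 to under 500 bp to 12.2 in exons of 2000 bp or more.

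Position within the gene differed less for the members as a whole. Members lay a median of 130 bp from the nearer edge of the coding exon, against 169 bp for coding positions, and 43.5% lay within 100 bp of an edge, against 36.5%. Windows around these summits therefore often reach past the coding part of the exon. The nearest transcript start was a median of 1576 bp away, against 1906 bp. The replicates' own peaks gave 1347, 1926 and 1768 bp (1680 ± 299.6, SD, n = 3), a spread that includes the coding value. Between 500 and 1000 bp from a start lay 30.6% of members and 23.1% of coding positions, and 35.6%, 24.5% and 27.8% of the replicates' own peaks. Of the 47 members found in all 3 replicates, 38.3% lay there, and 53.2% lay within 100 bp of an edge. At 11.4% of members the summit was non-coding in another transcript of the gene, against 8.81%.

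The nearest optimal summit was a median of 7139 bp away for members and 7393 bp for coding positions. Replicate 1's own peaks lay closer, at 4073 bp, and those of replicates 2 and 3 lay at 10169 and 7467 bp. Within 2000 bp of an optimal summit lay 18.0% of members and 14.5% of coding positions. The replicates disagreed on this, at 28.2%, 10.5% and 15.6% in the order of their numbers. Of the 47 members found in all 3 replicates, 36.2% lay within 2000 bp of an optimal summit. Genes with an optimal peak in the body held 49.6 members per Mb and other genes 37.3. The own peaks stood at 90.6 ± 15.9 and 73.7 ± 22.7 per Mb (SD, n = 3), with the difference resting on replicates 1 and 3, since replicate 2 had 99.4 and 98.2.

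The X chromosome held members at a low density. Density was 18.3 per Mb on the X (60 members), against 49.3 on 2L, 38.2 on 2R, 53.0 on 3L and 42.7 on 3R. The small chromosome 4, left out of the ratios because it held only 6 members, stood at 23.7 per Mb, and at 158.1, 31.6 and 67.2 in the replicates' own peaks. Relative to the 4 large autosomal arms together the X stood at 0.402. Weak intron peaks stood at 1.06, weak promoter peaks at 1.08, weak 3' UTR peaks at 1.10 and weak intergenic peaks at 0.881. In the replicates' own coding peaks the ratio was 0.820, 0.487 and 0.548 (0.618 ± 0.177, SD, n = 3), against 0.986 ± 0.0574 for intron peaks. The coding ratio was thus below 1 in 3 of 3 and least so in replicate 1. Own intergenic peaks were also below 1 in 3 of 3, though less far, at 0.916, 0.756 and 0.810. The ratio of the members was similar at all ranks, at 0.422, 0.407 and 0.378 from their strongest to their weakest tercile. The 20 strongest members were an exception, with 7 on the X, among them those in Ubr1, HisRS and raskol. Among the other 723 the ratio was 0.362. Coding sequence of the X was poorer in A+T than that of the autosomal arms, at 45.9% against 48.4%. Members differed in the same direction but by less, at 44.7% and 45.6%.

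**Figure D5:**
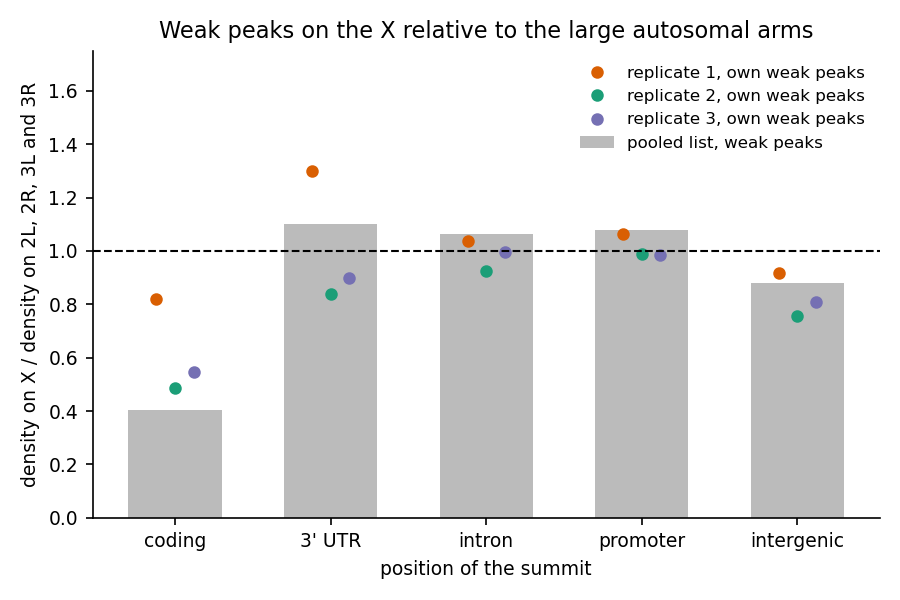
Density of weak peaks on the X divided by their density on 2L, 2R, 3L and 3R together (y axis), by position of the summit (x axis). Bars are the pooled list and points the replicates' own weak peaks; coding peaks stand at 0.402 and the other 4 kinds between 0.881 and 1.10.

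The members were spread thinly over genes. Of 12280 genes with eligible coding sequence, 678 (5.52%) held a member. That share is for genes with 1.5 kb of eligible coding sequence on average, so lists of longer genes are better read by density, which was 40.3 per Mb over all. A single member was found in 625 genes, 2 in 45, 3 in 7 and more than 3 in 1. That gene was lola, which encodes a large family of zinc finger proteins for axon growth through many alternative exons, with 7 members over 14598 bp of eligible coding sequence. All 7 lay in exons that are non-coding in other lola transcripts. The strongest was found in all 3 replicates, at relative signals of 0.739, 0.830 and 0.924 (0.831 ± 0.0924, SD, n = 3). Of the other 6, 1 was found in 2 replicates and 5 in 1. The intervals of the closest pair overlapped, with 1 found in replicate 1 only and the other in replicate 3 only. Only 18 of the 743 members lay within 400 bp of another, so nearly all were separate regions.

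Of the genes with 3 members, elB, a zinc finger gene of tracheal and appendage development, was the densest, with 3 in 1659 bp. They were found in 2, 2 and 1 replicates and none in replicate 1, and the intervals of the closest pair overlapped. The nuclear receptor gene ftz-f1 held 3, of which the second by pooled signal was found in all 3 replicates at 1.24, 0.952 and 0.680. The TSC22-family gene bun held 1 member found in all 3, at 0.890, 1.00 and 1.10, and the zinc finger gene mld, which is needed for ecdysone synthesis, held 1 at 1.13, 0.816 and 0.779. None of the 3 members in the collagen receptor gene Ddr recurred in every replicate, and 1 was found in none. Myo28B1 and Mhc, both of which encode myosins, also held 3 each.

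Genes of the nerve cord and of embryonic patterning held 7 members in all. Of 25 neural column and neuroblast genes 2 held 1 each (8%), or 39.1 per Mb. These were Kr, a gap gene and later neuroblast factor, found in all 3 replicates at 1.01, 0.953 and 0.670, and SoxN, a neural Sox gene, found only in replicate 1. Among 23 segmentation genes (13.0%, 90.03 per Mb) the knirps gene kni, nkd and the Hedgehog receptor gene ptc held 1 each. The kni member was found in all 3 replicates at 0.637, 0.748 and 0.638 (0.675 ± 0.0638, SD, n = 3). The ptc member lay 231 bp from an optimal summit and was found only in replicate 1. Of 11 Hox genes and cofactors hth and pb held 1 each (18.2%, 111.7 per Mb), both found in 1 replicate. All 3 lists were near or above the shares over all genes, and each density rests on 2 or 3 members. Within 20000 bp of ind the only member was in Sytbeta, the synaptotagmin gene around it, at a relative signal of 1.53 in replicate 2 and not found in the others. It was named after its value was seen.

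Muscle sarcomere genes have long coding sequences and many held a member. Of 19 sarcomere genes, 11 (57.9%) held a member. These were Act57B, Mf, Mhc, Mlp60A, Msp300, Obsc, Prm, Tm1, Tm2, Zasp52 and sls. Genes for actin, myosin, tropomyosins and giant proteins of the sarcomere are among them. The 19 genes of the list have 11.6 kb of eligible coding sequence per gene and 220.3 kb in all. Their 16 members made 72.6 per Mb against 40.3 over all genes. In the replicates' own peaks the density was 68.1, 104.4 and 45.4 per Mb, against 77.0, 98.5 and 57.8 over all coding sequence, so it was above the rest in replicate 2 only. The strongest, in Obsc, was found in replicates 2 and 3 at 1.94 and 0.898. The next, in Zasp52 (0.905), was found in replicate 2 only, and that in Tm1 in replicates 1 and 3 at 0.927 and 0.907.

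Other lists of long genes held fewer members. The 18 extracellular matrix genes held 0 members in 165.7 kb, although replicate 2's own peaks reached 108.7 per Mb there against 18.1 and 0 in replicates 1 and 3. The 26 Polycomb, trithorax and remodelling genes held 0 in 119.2 kb, with 58.7, 8.39 and 16.8 per Mb in the replicates. Of 20 large cytoskeletal genes 2 held members, at 14.8 per Mb, namely Msp300, which is also on the muscle list, and the filamin gene cher. Cadherin and junction genes (4 of 22, CadN, CadN2, Mcr and scrib) and axon guidance genes (4 of 30, Sema5c, Ten-a, beat-Ia and unc-5) stood at 37.0 and 35.6 per Mb. The Sema5c member was the strongest of these, at 1.01 in replicate 1 and 1.79 in replicate 2, and was not found in replicate 3. The 19 glutamine-rich regulators, a list made for the CAG repeats of their coding sequence, held members only in lola. Its 7 members made 57.8 per Mb for the list, above the 40.3 over all genes. The replicates' own peaks stood at 99.1, 49.6 and 99.1 per Mb there, against 77.0, 98.5 and 57.8 over all coding sequence.

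Broadly expressed genes and genes of late tissues both stood above the overall density, on few members. Of 26 broadly expressed genes 3 held 1 (11.5%, 78.1 per Mb), namely Act5C, a cytoplasmic actin, RpL4, a ribosomal protein, and eEF1alpha1, a translation elongation factor. None of these 3 was found in every replicate (1.03 and 1.25 in replicates 1 and 2 for eEF1alpha1, 1.16 in replicate 3 for RpL4). The summits in RpL4 and eEF1alpha1 lay 503 and 505 bp from a transcript start, just past the limit of 500 bp. Of 34 genes for products of late or adult tissues, chosen because embryos should hardly transcribe them, 2 held 1 (5.88%, 70.9 per Mb), the eggshell gene Cp38 and the larval serum protein gene Lsp1beta. The replicates' own peaks overlapped in density, at 141.8, 318.9 and 70.9 per Mb there and in broadly expressed genes at 260.2, 26.0 and 78.1 per Mb. The eligible coding sequence of these 2 lists was 28.2 and 38.4 kb, so single peaks move these densities.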

How the data were processed

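Relaxed peak lists were made by the authors from each replicate and from all 3 alignments pooled, against 1 control, per the notes that came with the files. Comparing rank between replicates (the irreproducible discovery rate) gave their optimal list. The peak signal is the authors' deposited value and was used only within a list. The q-value is deposited on the −log10 scale. Aligner, peak caller and read depth, not given in the sources used here, are unknown, so intervals that need depth were left out. The 1 group of 3 samples came from separate biosamples per the labels. The dm3 lists were not used here.

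Lists in dm6 were joined to RefSeq's sequence of the same assembly and Ensembl's BDGP6 annotation (release 115). Starts of transposable elements were not counted as transcript starts. Positions are 1-based. Relative signal means signal over the median signal of that list. Coding background was every 20 bp of eligible coding sequence (18431 of these positions for exon and distance values, 92154 for the ranking of 6-mers). The functions were tested on simulated summits. Analyses used Python 3.11.15, numpy 2.4.6, pandas 2.3.3 and matplotlib 3.10.9.

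Members, 12 gene lists and 12 6-mers were chosen with earlier results of these data known. Of 280 list entries, 3 were matched by a RefSeq synonym and 2 (Dl and nos) not at all. Genes were named as the 20 strongest members found in all 3 replicates, the 6 genes with most members, up to 3 genes per list and the members at the threshold. Other names were chosen after their values were seen. No significance test was made.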

Additional observations from a re-analysis of the deposited data

How the results depend on the processing

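Of 51 alternative values for 11 results, 30 stayed within the replicate spread or within 1.5 times the count. A −log10 q-value of at least 2 left 10 members, at a median relative signal of 1.54. The 47 members found in all 3 replicates became 25 with summits within 100 bp, 73 within 500 bp and 29 more than 1000 bp from a start. Counting only 2 replicates gave 98 to 178. Those 47 members had a median relative signal of 1.01, a density of 2.55 per Mb, 44.1% of bases A or T, 4.26% with TAATTA and 48.9% with CAGCAG, and lay in 47 genes. With 50 bp to each side 44.3% of bases were A or T (coding 47.4%), 0.942% of members held TAATTA (1.05%) and 20.9% CAGCAG (17.4%). With 250 bp these were 48.8% (49.5%), 12.4% (10.2%) and 57.2% (53.1%), so only TAATTA changed its order against coding sequence. In the 371 strongest members CAGCAG stood at 37.7%. The X ratio, whose alternatives were added after seeing the data, ran from 0.354 to 0.431. Causes were not tested, apart from the windows and subsets being of another size by construction. The pooled list could not be remade without a replicate: leaving 1 out counts members found in the other replicates. No paired analysis was possible because the study has 1 group. Read depth is unknown, so it cannot be said which members lie below detection in a replicate.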
